A study of Homo sapiens with 18 samples.

Results

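The genes described here are AKT1, AKT2, PIK3CA, PIK3R1, PHLPP1, INPP4B, PDPK1 and RICTOR, AKT kinases, and proteins that control AKT through membrane lipids or by adding or removing its phosphates. They were taken by name, as the rows of the count table whose Ensembl identifier maps to these symbols, and make up 8 of its 57448 genes. RNA-seq was carried out on MDA-MB-231, a human triple negative breast cancer line with mesenchymal features, in 6 groups of 3 libraries. The study asked how loss of GPS2, a corepressor subunit and inhibitor of ubiquitin conjugation, bears on AKT signaling. WT libraries came from the untreated parental line. KO1 and KO2 were untreated knockout pools, each made by CRISPR-Cas9 with its own set of sgRNAs against GPS2 in a lentiviral vector and selected with puromycin, so that each is a mixture of edited cells and not a clone. The myrAKT line was untreated and carried a retrovirus for AKT1 with a myristoylation signal, which holds the kinase at membranes and keeps it active. KO1+MK and KO2+MK were the same pools given 10 µM MK2206, an allosteric AKT inhibitor, for 4 h before collection. No WT or myrAKT library was treated, and no vehicle is named for the untreated groups.

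Class I PI3K is a dimer of a catalytic and a regulatory subunit that is recruited to activated receptors and their adaptors, where it phosphorylates membrane lipids. AKT binds these lipids and is then phosphorylated by PDPK1 and by mTORC2, the kinase complex built on RICTOR, while lipid phosphatases and AKT phosphatases switch it off. In breast cancer the pathway is often activated, and active AKT keeps FOXO transcription factors out of the nucleus, which lowers the transcription of several of the pathway's own receptors and adaptors.

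The 18 libraries held 23419198 to 39319910 counts each. The treated libraries were shallower, with 23419198 to 29365207 counts in KO1+MK and 27544978 to 29939536 in KO2+MK, against 35627965 to 39319910 in the untreated KO1 and KO2 libraries. Levels are given as CPM, counts scaled by the size of the library and its TMM factor, and changes as log2 fold changes from edgeR's quasi-likelihood test. A gene was called when its p, adjusted over the 15587 genes tested, was at most 0.001, with no minimum fold change. All 8 genes passed the filter on low counts, and the lowest count of any of them was 622, for PHLPP1 in a myrAKT library. The labels do not say whether the 3 libraries of a group came from separate cultures, so that the p-values measure the spread between these libraries, which may be technical. Counts of a whole culture cannot separate a change in RNA per cell from a change in the share of cells that hold the RNA.

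GPS2 (ENSG00000132522, chr17:7311324-7315564, minus strand, GRCh38) did not have lower counts in the knockout libraries. WT libraries held 4.40, 4.89 and 4.42 CPM of GPS2, those labelled KO1 4.54, 4.46 and 4.51 CPM, and those labelled KO2 5.90, 6.09 and 6.14 CPM. KO1 thus lay within the WT range and KO2 above it, with a log2 fold change of 0.40 for KO2 against WT (adjusted p = 0.00221) that was not called. In the other groups GPS2 lay at 4.51 to 6.13 CPM in myrAKT, 4.79 to 5.84 CPM in KO1+MK and 5.60 to 6.16 CPM in KO2+MK. Small edits need not lower the RNA of a gene, and 2 genes overlap GPS2. The gene on the same strand shares 1380 of its 3089 exon bases and had a mean of 2.11 counts. EIF5A on the opposite strand shares 241 and had a mean of 26199.889 counts, against 123 to 236 for GPS2, so that the GPS2 level is uncertain whether or not strand was used. Gene counts therefore did not show the edit, and the genotype of the libraries labelled KO1 and KO2 is taken from their labels in every comparison below.

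The label of the cell line was checked against markers. VIM, CD44 and AXL, genes of mesenchymal-like breast cancer cells, had median levels over the 18 libraries of 1530, 528 and 1050 CPM. ESR1 did not exceed 1.38 CPM, PGR 0.137 CPM and CDH1 0.128 CPM, while EPCAM ranged from 3.16 to 12.3 CPM, highest in WT and lowest in myrAKT. ERBB2 was not absent, with 79.9 to 93.9 CPM. The leukocyte genes PTPRC and CD3E had at most 5 counts and 1 count in any library. Of the endothelial genes, PECAM1 had 19.9 to 22.5 CPM in myrAKT, 3.38 to 3.71 CPM in WT and 1.56 to 4.21 CPM in the other groups, and CDH5 ranged from 0.241 CPM in myrAKT to 3.47 CPM in WT.

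In the parental line the 8 genes differed in level when scaled to length (CPM per kilobase of merged exons in GENCODE release 44). RICTOR had the highest level, 14.6 ± 0.202 CPM per kb (SD, n = 3), and AKT1 followed with 12.3 ± 0.0913. INPP4B, AKT2 and PIK3CA lay at 6.55 ± 0.145, 5.62 ± 0.0719 and 4.30 ± 0.0966 CPM per kb. PHLPP1 had 3.68 ± 0.166, PDPK1 3.06 ± 0.132 and PIK3R1 1.34 ± 0.0757 CPM per kb. The WT ranges of neighbours in this order did not overlap. Exons of all annotated transcripts enter these lengths, so that a gene with long, rarely used exons appears lower.

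Loss of GPS2, taken from the labels, went with small changes among the 8 genes. WT was the parental line, and no group was given virus and puromycin without sgRNAs against GPS2. In these comparisons loss of GPS2 cannot be told apart from transduction and selection. AKT2 was the 1 gene called with the pools joined (KO against WT), and it was higher. In this comparison 15.5% of all tested genes were called higher and 16.6% lower. In KO1 against WT, AKT2 and PIK3R1 were called higher and PIK3CA and RICTOR lower, where 20.5% of tested genes were called higher and 21.3% lower. In KO2 against WT, AKT2, PIK3R1 and PDPK1 were called higher and no member lower, against 20.8% and 22.2% of tested genes. None of these changes other than that of PIK3R1 in KO2 reached 1.5-fold.

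In myrAKT against WT, 3 genes were called higher, AKT1, PIK3R1 and RICTOR, where 12.7% of tested genes were. The retrovirus of this line carries AKT1, whose RNA is not separated from that of the endogenous gene, so the AKT1 call is not an independent result. PHLPP1 and INPP4B, which both act against AKT signaling, were called lower, where 17.3% of tested genes were. This comparison uses the same WT libraries as those of the knockout pools. No group carried a retrovirus without AKT1, so that active AKT1 cannot be told apart from transduction.

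AKT inhibition in the knockout pools went with higher RNA of PIK3CA, PIK3R1, PDPK1 and RICTOR, which act upstream of AKT, and lower RNA of AKT2 and INPP4B. These were the 4 genes called higher and 2 called lower in MK2206 in KO, where 12.8% and 8.75% of tested genes were called. In KO1 alone the same 4 were higher and AKT2, PHLPP1 and INPP4B lower, against 10.9% and 8.26% of tested genes. In KO2 alone the same 4 were higher and INPP4B was lower, against 13.1% and 8.78%. Depth moved with treatment, as given above, and its part in these changes was not tested.

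The pools differed from each other in 1 of the 8 genes, PIK3R1, which was lower in KO1 than in KO2, where 7.06% of tested genes were called higher in KO1 and 5.54% lower. When the MK2206 effect in KO1 was tested against that in KO2, edgeR called none of the 8 genes in either direction, against 0% of tested genes called higher and 0.0128% lower. At an unadjusted p under 0.05 the count was 0 of 8 as well, and DESeq2 called 0. No share of all tested genes is given for either of these counts.

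**Figure D1:**
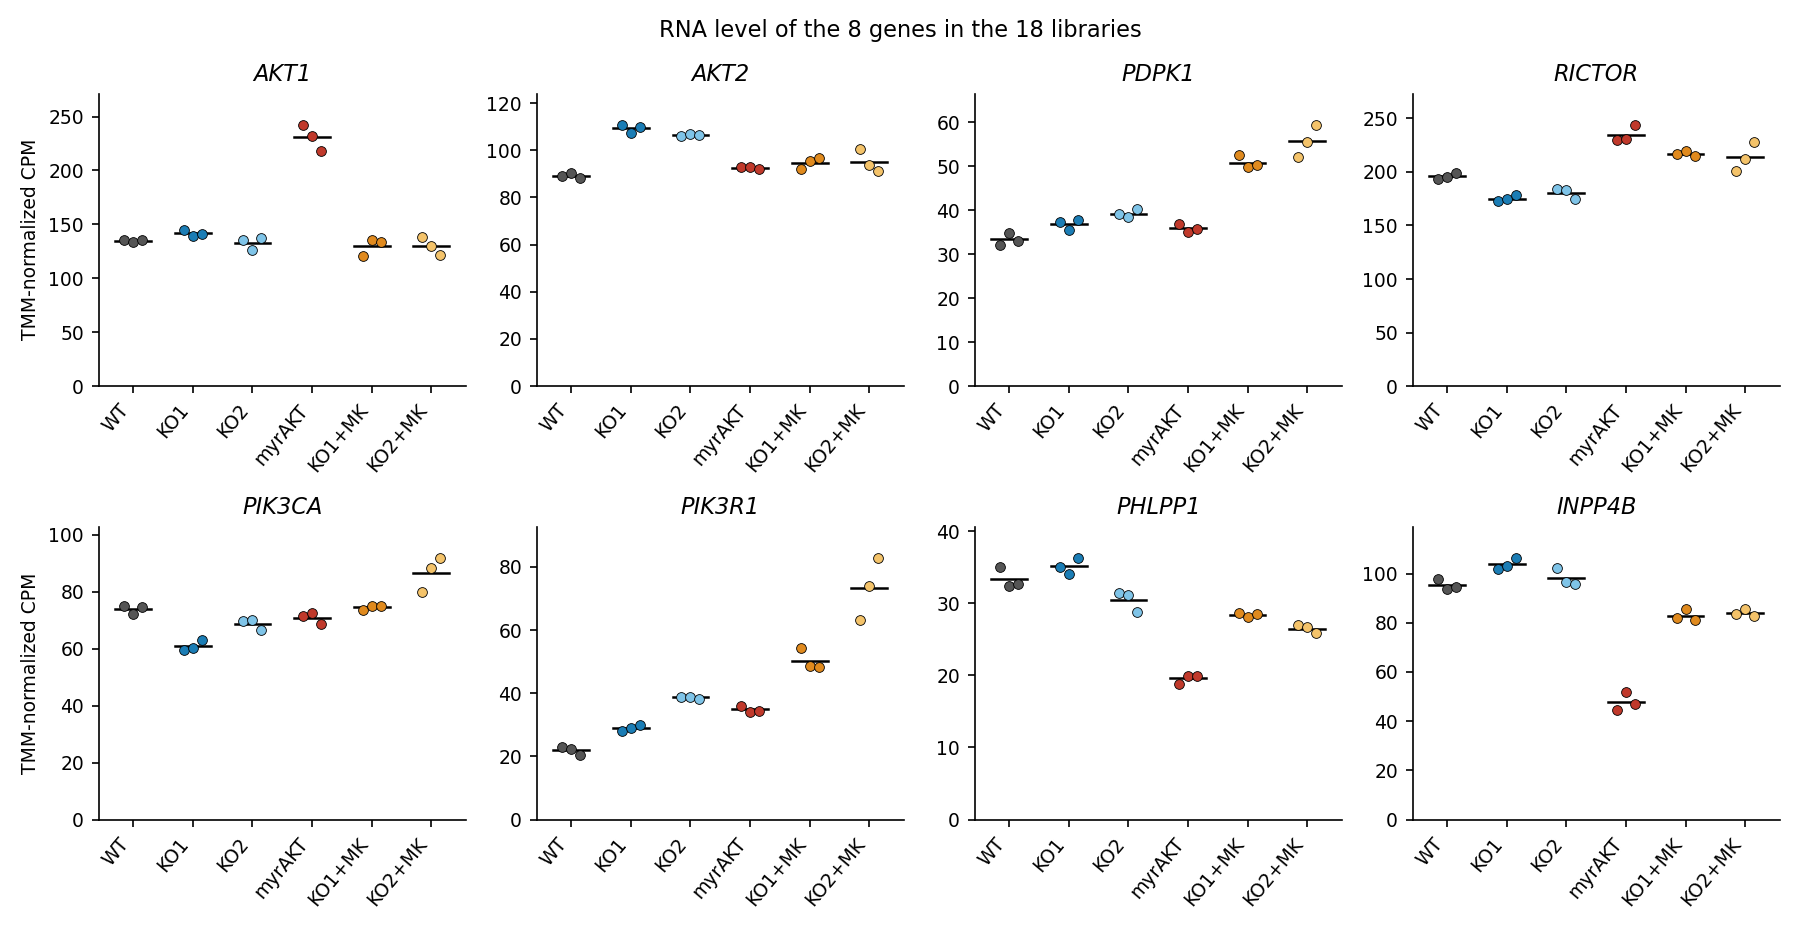
TMM-normalized CPM (y axis, from 0) of each of the 8 genes in each library (points) by group (x axis), with the mean of 3 libraries as a bar. PIK3R1 runs from 20.5 CPM in a WT library to 82.7 CPM in a KO2+MK library, and INPP4B and PHLPP1 are lowest in the myrAKT libraries.

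**Figure D2:**
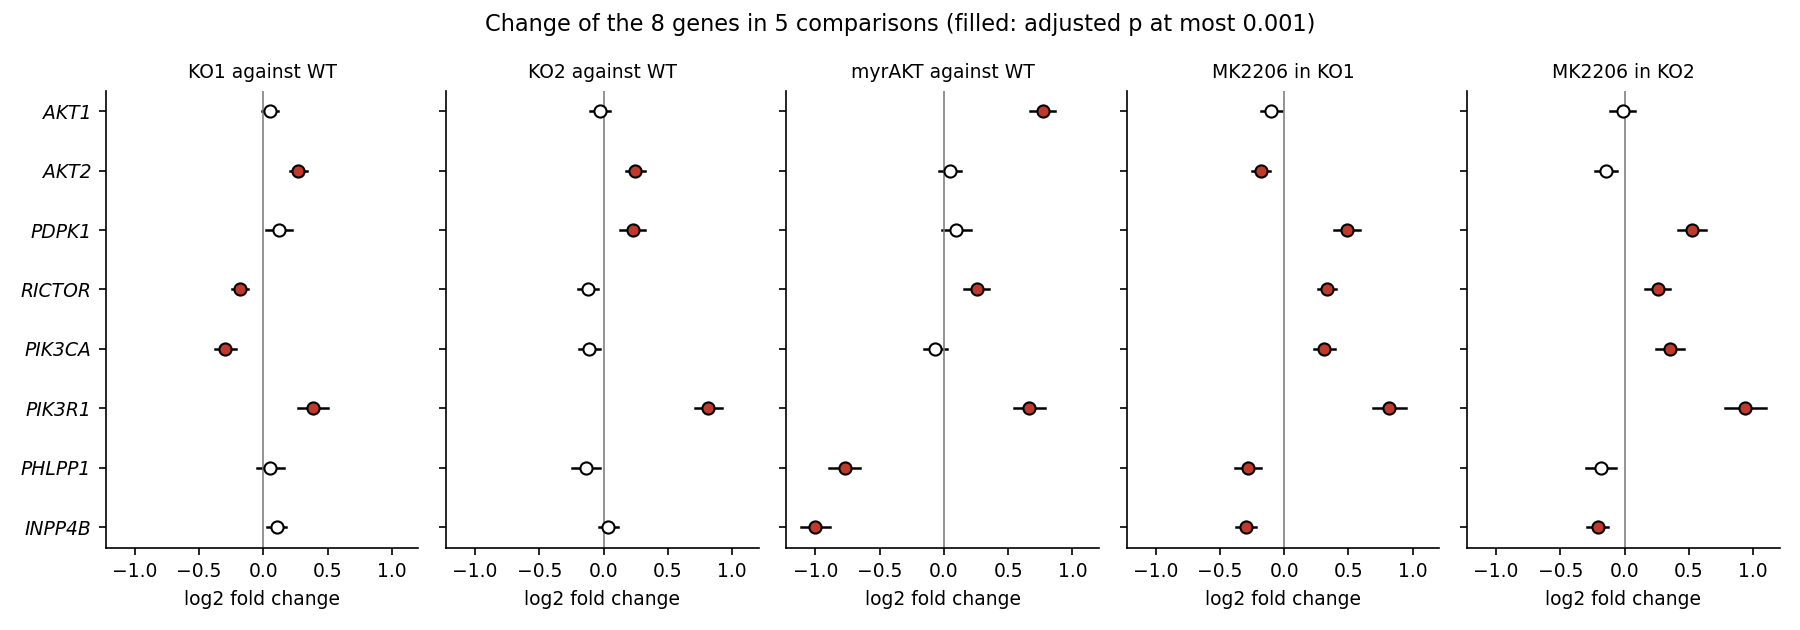
Log2 fold change (x axis) of each gene (y axis) in 5 comparisons, with 95% confidence intervals as bars and filled points for genes called. PIK3R1 lies to the right of 0 in every panel, between 0.39 and 0.94, and INPP4B reaches −1.001 in myrAKT.

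PIK3CA, PIK3R1, PDPK1 and RICTOR were each called higher with MK2206, and the 250 bases upstream of their most upstream RefSeq start were searched for GTAAACA and its reverse complement TGTTTAC, the core motif bound by FOXO factors (GRCh38.p14; PIK3CA chr3:179148107-179148356, plus strand; PIK3R1 chr5:68215506-68215755, plus strand; PDPK1 chr16:2537771-2538020, plus strand; RICTOR chr5:39074400-39074649, minus strand). For PIK3R1 and PDPK1, which had the largest changes of the 4, the part of the window outside annotated exons is shown, from 5′ to 3′ on the strand of the gene (PIK3R1 chr5:68215506-68215739, PDPK1 chr16:2537771-2537978). Neither holds the motif, so nothing is in capitals.
PIK3R1: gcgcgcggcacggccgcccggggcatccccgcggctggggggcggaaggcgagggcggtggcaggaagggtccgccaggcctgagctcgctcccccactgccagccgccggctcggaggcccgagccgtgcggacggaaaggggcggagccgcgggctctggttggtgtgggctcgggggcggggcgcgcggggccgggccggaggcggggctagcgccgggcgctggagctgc
PDPK1: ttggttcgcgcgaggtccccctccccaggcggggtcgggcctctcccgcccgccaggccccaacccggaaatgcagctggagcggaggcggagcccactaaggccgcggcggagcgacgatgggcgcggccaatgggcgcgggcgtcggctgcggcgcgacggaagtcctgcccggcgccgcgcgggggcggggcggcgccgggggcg
The motif was present once in the 4 windows, in PIK3CA as TGTTTAC at chr3:179148208-179148214, 149 to 143 bases before the RefSeq start. GENCODE places the start of PIK3CA further upstream, so that 243 of the 250 bases lie inside the annotated gene, and the motif lies in an exon, 94 bases past the gene's first base. All 8 genes had a promoter in the table, and the motif was found in 1 of the 8 windows chosen in this way. Of all 35116 promoter windows of the same length, 2.98% held the motif on either strand. G and C made up 81.6% of the PIK3R1 and PDPK1 windows, 76.0% of the RICTOR window and 57.6% of the PIK3CA window. A match describes the letters of the window and is not evidence of binding.

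PIK3R1 (ENSG00000145675, chr5:68215740-68301821, plus strand) encodes the alpha regulatory subunit, which stabilizes the catalytic subunit and docks it on phosphorylated tyrosines. WT libraries held 22.95, 22.22 and 20.54 CPM. KO1 libraries held 28.0, 29.0 and 30.0 CPM, KO2 libraries 38.9, 38.8 and 38.3 CPM, and myrAKT libraries 35.95, 34.2 and 34.4 CPM. All 9 of these lay above all WT libraries. KO1+MK libraries held 54.3, 48.5 and 48.2 CPM and KO2+MK libraries 63.2, 73.9 and 82.7 CPM. Every treated library thus lay above every untreated one. The order of the group means was WT, KO1, myrAKT, KO2, KO1+MK and KO2+MK, and no neighbours in it overlapped.

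The log2 fold change of PIK3R1 against WT was 0.39 (standard error, SE, 0.0540, adjusted p = 1.68e-05) in KO1, 0.82 (0.0479, adjusted p = 9.38e-09) in KO2 and 0.67 (0.0552, adjusted p = 1.71e-07) in myrAKT. With both pools together it was 0.61 (SE 0.120), and the adjusted p of 0.001002 missed the threshold by a small margin, although all 6 knockout libraries lay above the 3 WT libraries. The pools themselves differed, with KO1 lower than KO2 by a log2 fold change of −0.43 (adjusted p = 9.30e-07). MK2206 raised PIK3R1 by 0.82 in log2 units (SE 0.0582, adjusted p = 2.72e-07) in KO1 and 0.94 (0.0734, adjusted p = 1.46e-07) in KO2, in 6 of 6 treated libraries. The MK2206 effect in KO1 minus that in KO2 was −0.12 (95% interval −0.34 to 0.10). In KO2+MK the mean reached 334% of the WT mean.

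PIK3CA (ENSG00000121879, chr3:179148114-179240093, plus strand) encodes the alpha catalytic subunit, often mutated in breast cancer. It had 75.2, 72.1 and 74.7 CPM in WT, 59.7, 60.3 and 63.0 CPM in KO1, and 69.8, 70.0 and 66.6 CPM in KO2. All 6 knockout libraries lay below WT. The myrAKT libraries, at 71.5, 72.4 and 68.8 CPM, overlapped WT. After MK2206 the levels were 73.7, 75.0 and 74.9 CPM in KO1+MK and 79.9, 88.5 and 91.8 CPM in KO2+MK. The treated KO1 pool thus lay in the WT range and the treated KO2 pool above it. In the order KO1, KO2, myrAKT, WT, KO1+MK and KO2+MK, neighbours overlapped from KO2 to KO1+MK.

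PIK3CA fell in KO1, with −0.30 in log2 units (SE 0.0379, adjusted p = 7.01e-06), while in KO2 it was −0.11 (adjusted p = 0.0173) and with both pools together −0.21 (adjusted p = 0.00715), neither called. KO1 against KO2 gave −0.18 (adjusted p = 0.001001), which was not called. MK2206 raised it by 0.31 (SE 0.0367, adjusted p = 1.84e-05) in KO1, 0.35 (0.0505, adjusted p = 4.67e-05) in KO2 and 0.34 (0.0645, adjusted p = 6.92e-04) over both. The main fit over both pools had no term for the pool. Its call was lost with 4 of 9 other settings and without any 1 of 9 of the 12 libraries (adjusted p up to 0.00318). Within each pool it was kept in 8 of 8 other fits and without each of the 6 libraries, and lost with a minimum fold change of 1.5. PIK3CA shares 3403 of its 17189 exon bases with KCNMB3 on the opposite strand. Whether counting used strand is not given in the sources used here, and KCNMB3 had a mean of 32.9 counts per library against at least 1771 for PIK3CA.

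The proportion of PIK3R1 to PIK3CA RNA rose with these changes. The ratio of PIK3R1 to PIK3CA, both per kb, was 0.312 ± 0.0194 (SD, n = 3) in WT, 0.501 ± 0.00644 in KO1, 0.593 ± 0.0118 in KO2 and 0.518 ± 0.0180 in myrAKT. Treated pools reached 0.711 ± 0.0561 in KO1+MK and 0.887 ± 0.0585 in KO2+MK. The ratio was lowest in WT and highest in the treated pools, with no overlap between treated and untreated libraries. Among the class I catalytic genes PIK3CA was not the most abundant. In WT it made up 16.1 ± 0.185% of their summed CPM per kb, and PIK3CB, the beta subunit, 46.3 ± 0.818%. PIK3CD and PIK3CG, subunits known mainly from leukocytes, made up 19.5 ± 0.902% and 18.2 ± 0.642%. These shares depend on exon length, and unscaled the WT means were 73.99 CPM for PIK3CA, 96.89 for PIK3CB, 49.81 for PIK3CD and 37.69 for PIK3CG, so that PIK3CA was second. PIK3CD also shares 189 exon bases with CLSTN1 on the opposite strand, which had a mean of 7630.5 counts against 1175.22 for PIK3CD. The share of PIK3CA was 15.5 ± 0.336% in KO1 and 22.2 ± 1.33% in KO2+MK.

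**Figure D3:**
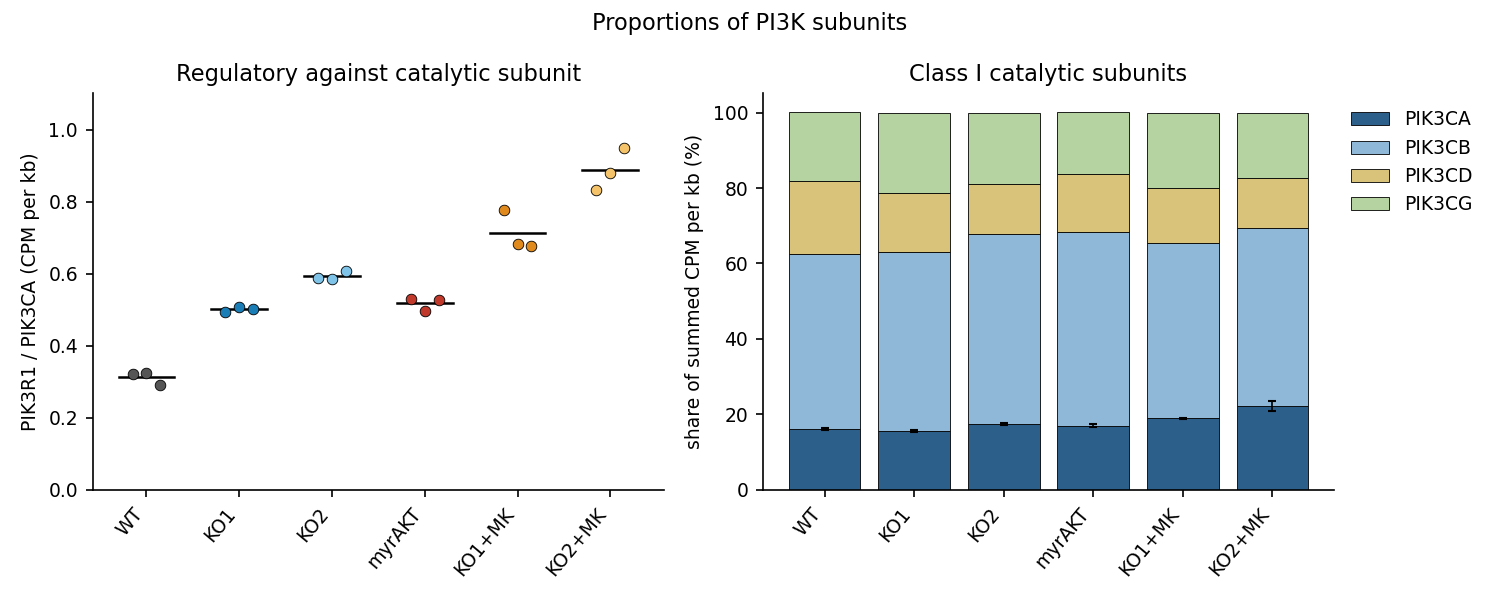
Left, ratio of PIK3R1 to PIK3CA in CPM per kb (y axis) in each library (points), with group means as bars. Right, share of PIK3CA, PIK3CB, PIK3CD and PIK3CG in their summed CPM per kb (y axis, mean of 3 libraries, error bars SD of the PIK3CA share). The ratio is 0.312 in WT and 0.887 in KO2+MK, and the PIK3CA share is 16.1% and 22.2% in these groups.

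Of the other genes for PI3K subunits and their binding partners, 14 were listed and 10 tested. In KO against WT 1 was called higher and 3 lower, where 15.5% and 16.6% of all tested genes were. Their median log2 fold change was −0.18 beside −0.0029 over all tested genes. PIK3IP1, a membrane protein that inhibits PI3K, fell from 4.46 ± 0.125 CPM (SD, n = 3) in WT to 1.13 ± 0.528 (n = 6), a log2 fold change of −1.998 (adjusted p = 7.30e-05). It was also lower in myrAKT, at 1.27 ± 0.140 CPM (log2 fold change −1.81, adjusted p = 1.88e-07). These rest on 23 to 73 counts per library in the untreated pools and myrAKT. With MK2206 the log2 fold change of PIK3IP1 was 1.13 over both pools (adjusted p = 0.00373), not called. It was 1.01 in KO1 (adjusted p = 0.00122), not called, and 1.38 in KO2 (adjusted p = 6.62e-05), called. PIK3C2B, a class II PI3K, fell by −1.02 in the knockout pools (adjusted p = 5.07e-07). The 1 gene called higher was PIK3R3, the gamma regulatory subunit.

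In myrAKT 1 of the 10 was called higher, again PIK3R3, and 6 lower, where 12.7% and 17.3% of all tested genes were. The median was −0.39 beside 0.0163 over all tested genes. PIK3AP1, an adaptor that brings PI3K to receptors, fell from 19.8 ± 1.26 to 9.30 ± 0.381 CPM (log2 fold change −1.09, adjusted p = 1.57e-08). MK2206 raised 3 of the 10 and lowered 0 by edgeR, beside 12.8% and 8.75% of all tested genes, with a median of 0.16 beside −0.0031. PIK3R3 rose from 15.1 ± 2.08 to 23.9 ± 4.48 CPM (n = 6 each, log2 fold change 0.68, adjusted p = 3.62e-04). PIK3C3, the class III enzyme of autophagy and endosomes, rose by 0.23 (adjusted p = 1.13e-04). PIK3R2, the beta regulatory subunit, did not pass the filter, with 9 to 22 counts. It shares 3942 of its 5163 exon bases with another annotated gene on the same strand, so that its RNA level could not be read from these counts.

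Of 12 adaptors that recruit PI3K to receptors, 10 were tested. Knockout pools had 1 called higher and 2 lower (median −0.12), where 15.5% and 16.6% of all tested genes were. GAB2, a docking protein, fell from 86.1 ± 5.64 to 57.1 ± 4.25 CPM (log2 fold change −0.61, adjusted p = 8.94e-06) and SH2B2 by −0.52 (adjusted p = 2.77e-04). In myrAKT 3 were higher and 2 lower (median 0.06, beside 12.7% and 17.3% of all tested genes), the latter GAB2 at −0.98 (adjusted p = 5.12e-09) and GRB14 at −1.08 (adjusted p = 3.02e-04), an adaptor that restrains the insulin receptor. MK2206 raised 4 and lowered 1 (median 0.14), beside 12.8% and 8.75% of all tested genes. In each pool alone 4 were higher and 2 lower, beside 10.9% and 8.26% of all tested genes in KO1 and 13.1% and 8.78% in KO2. The lower ones were IRS1 and GAB2 in both pools, GAB2 at −0.23 in KO1 (adjusted p = 9.73e-04) and −0.31 in KO2 (adjusted p = 2.48e-04). IRS1, an insulin receptor substrate, fell from 166.9 ± 6.18 to 88.2 ± 6.07 CPM (log2 fold change −0.90, adjusted p = 7.50e-09). Its paralog IRS2 rose by 0.80 (adjusted p = 1.04e-05), and GAB1 rose from 19.1 ± 1.49 to 33.1 ± 3.13 CPM (0.81, adjusted p = 5.74e-07).

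PDPK1 (ENSG00000140992, chr16:2537979-2603188, plus strand) encodes the kinase that phosphorylates the activation loop of AKT. It had 32.1, 34.9 and 33.1 CPM in WT, 37.3, 35.6 and 37.7 CPM in KO1, 39.1, 38.4 and 40.2 CPM in KO2, and 36.8, 35.2 and 35.7 CPM in myrAKT. Each of these groups lay above WT by a margin no larger than 8.14 CPM between the extreme libraries. With MK2206 it had 52.5, 49.8 and 50.3 CPM in KO1+MK and 52.2, 55.6 and 59.4 CPM in KO2+MK. All 6 treated libraries lay above all 12 untreated ones. From low to high the groups were WT, myrAKT, KO1, KO2, KO1+MK and KO2+MK, with overlap between myrAKT and KO1 and between the treated pools.

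MK2206 raised PDPK1 by a log2 value of 0.49 (SE 0.0457, adjusted p = 2.84e-06) in KO1 and 0.53 (0.0509, adjusted p = 1.13e-06) in KO2. Against WT it was 0.23 (SE 0.0456, adjusted p = 6.54e-04) in KO2, a call lost without any 1 of 5 of the 6 libraries, without a filter (adjusted p = 0.00234) and with at least 10 counts in every library (adjusted p = 0.00111). In KO1 it was 0.13 (adjusted p = 0.0293) and in myrAKT 0.10 (adjusted p = 0.126), neither called. PDPK1 is uncertain because PDPK2P, a near-identical pseudogene on the same chromosome, can share its reads. PDPK2P had 33 to 73 counts per library and a log2 fold change with MK2206 of 0.70 over both pools (adjusted p = 0.00149), not called.

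RICTOR (ENSG00000164327, chr5:38937920-39074402, minus strand) defines mTORC2, which phosphorylates the hydrophobic motif of AKT. It had 193.6, 195.4 and 199.0 CPM in WT, 172.6, 174.7 and 178.3 CPM in KO1, and 183.8, 183.5 and 175.1 CPM in KO2. All 6 knockout libraries lay below WT. In myrAKT it had 229.5, 231.2 and 244.0 CPM, all above WT. Treated pools, with 216.6, 219.6 and 214.7 CPM in KO1+MK and 200.7, 212.4 and 227.8 CPM in KO2+MK, lay above WT as well. Ordered by their means the groups were KO1, KO2, WT, KO2+MK, KO1+MK and myrAKT, with overlap between the untreated pools and between the treated pools.

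RICTOR fell in KO1, with −0.18 in log2 units (SE 0.0297, adjusted p = 8.07e-05) and was −0.12 in KO2 (adjusted p = 0.00749) and −0.16 in both together (adjusted p = 0.00117), not called. It rose in myrAKT by 0.26 (SE 0.0446, adjusted p = 2.34e-04). The call in KO1 was lost without either of 2 libraries and that in myrAKT without any 1 of 4, out of 6 each. Both were also lost without a filter (adjusted p = 0.00123 in KO1 and 0.00923 in myrAKT). With all 18 libraries in one fit the call in KO1 was lost as well (adjusted p = 0.00134). MK2206 raised RICTOR by 0.33 (SE 0.0323, adjusted p = 3.79e-06) in KO1 and 0.26 (0.0455, adjusted p = 2.85e-04) in KO2. The latter call was lost without any 1 of 4 libraries and with upper-quartile factors (adjusted p = 0.00102). RICTOR shares 229 of 13457 exon bases with OSMR on the opposite strand, which had a mean of 6898 counts per library. OSMR itself had a log2 fold change with MK2206 of 0.01 (adjusted p = 0.959) and in myrAKT of −0.01 (adjusted p = 0.905). In KO2 against WT OSMR was called lower, at −0.35 (adjusted p = 1.71e-05), and in KO1 it was −0.12 (adjusted p = 0.0130), not called. Whether the shared bases bear on the RICTOR counts was not tested.

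The list of kinases of AKT and mTORC2 subunits held 9 other genes, all tested. Knockout pools had 4 called higher and 0 lower by edgeR (median 0.05), where 15.5% and 16.6% of all tested genes were. TELO2, a chaperone for mTOR and related kinases, rose from a mean of 25.6 CPM to 44.02 CPM (log2 fold change 0.76, adjusted p = 2.75e-07). MLST8, a subunit of both mTOR complexes, rose from 35.2 ± 2.38 to 54.6 ± 2.29 CPM (0.61, adjusted p = 2.06e-06). In myrAKT 0 were higher and 2 lower (median −0.0010, beside 12.7% and 17.3% of all tested genes), the mTORC2 subunits PRR5 at −1.08 (adjusted p = 4.52e-04) and MAPKAP1 at −0.26 (adjusted p = 1.13e-04). MK2206 raised 1 and lowered 2 (median −0.02, beside 12.8% and 8.75% of all tested genes), MLST8 at −0.33 (adjusted p = 2.76e-05) and TELO2 at −0.32 (adjusted p = 4.14e-06). RICTOR and the mTOR partners MLST8 and TELO2 thus moved in opposite directions under MK2206.

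AKT1 (ENSG00000142208, chr14:104769349-104795751, minus strand) had 135.4, 133.8 and 135.6 CPM in WT and 242.3, 231.9 and 218.3 CPM in myrAKT. Counts per gene cannot separate RNA of the retrovirus from that of the gene on chromosome 14. The other groups lay close to WT, with 145.1, 138.9 and 141.1 CPM in KO1, 135.7, 126.3 and 137.4 CPM in KO2, 120.9, 135.6 and 133.6 CPM in KO1+MK, and 138.7, 129.9 and 121.4 CPM in KO2+MK. In the order KO2+MK, KO1+MK, KO2, WT, KO1 and myrAKT, neighbours overlapped up to WT. Outside myrAKT no comparison called AKT1, with log2 fold changes against WT of 0.05 (95% interval −0.01 to 0.12) in KO1 and −0.03 (−0.10 to 0.05) in KO2, and with MK2206 of −0.10 (−0.18 to −0.01) in KO1 and −0.02 (−0.11 to 0.08) in KO2.

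AKT2 (ENSG00000105221, chr19:40230317-40285536, minus strand), the isoform known for its role in insulin-driven glucose uptake, was the member most alike in both pools. It had 89.0, 90.6 and 88.4 CPM in WT, 110.8, 107.4 and 109.9 CPM in KO1, and 105.9, 107.0 and 106.7 CPM in KO2. The knockout libraries formed the highest groups of the 6, with no overlap with any other. In myrAKT it had 93.1, 92.8 and 92.0 CPM, and after MK2206 91.9, 95.3 and 96.8 CPM in KO1+MK and 100.4, 93.9 and 91.1 CPM in KO2+MK. From low to high the groups were WT, myrAKT, KO1+MK, KO2+MK, KO2 and KO1, and myrAKT and the treated pools overlapped.

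AKT2 rose in both pools, with log2 fold changes of 0.27 (SE 0.0319, adjusted p = 2.69e-06) in KO1, 0.25 (0.0325, adjusted p = 1.61e-05) in KO2 and 0.25 (0.0304, adjusted p = 2.56e-05) over both pools. MK2206 lowered it, with −0.18 in KO1 (SE 0.0326, adjusted p = 5.58e-04) and −0.16 over both pools (0.0274, adjusted p = 2.14e-04). In KO2 alone the value was −0.15 (adjusted p = 0.00805), not called, and the difference between the pools was −0.04 (95% interval −0.15 to 0.07). The call in KO1 alone was lost without any 1 of 5 of the 6 libraries. It was also lost with library totals (adjusted p = 0.00129) and with replicate number as a block (adjusted p = 0.00166). Without a filter the call over both pools was lost (−0.196, adjusted p = 0.00162). In myrAKT the log2 fold change of AKT2 was 0.05 (adjusted p = 0.332).

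INPP4B (ENSG00000109452, chr4:142023160-142847432, minus strand) removes a phosphate from a lipid product of PI3K signaling that AKT binds. It had 97.7, 93.8 and 94.5 CPM in WT and 44.7, 52.0 and 46.9 CPM in myrAKT. The highest myrAKT library was thus far below the lowest WT library. Knockout pools had 102.0, 103.1 and 106.2 CPM in KO1 and 102.1, 96.6 and 95.9 CPM in KO2, and treated pools 82.1, 85.4 and 81.3 CPM in KO1+MK and 83.4, 85.6 and 83.0 CPM in KO2+MK. Treated libraries lay below all WT and untreated knockout libraries and above all myrAKT libraries. The order was myrAKT, KO1+MK, KO2+MK, WT, KO2 and KO1, with overlap between the treated pools, between WT and KO2, and between KO2 and KO1.

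INPP4B fell in myrAKT, with −1.001 in log2 units (SE 0.0528, adjusted p = 1.76e-09), to 50.2 ± 3.92% of the WT mean (SD, n = 3). MK2206 lowered it, with −0.30 (SE 0.0351, adjusted p = 1.88e-05) in KO1 and −0.21 (0.0388, adjusted p = 4.79e-04) in KO2, in 6 of 6 libraries. The call in KO2 was lost without any 1 of 4 of the 6 libraries. Against WT, INPP4B was 0.10 (adjusted p = 0.0137) in KO1 and 0.04 (adjusted p = 0.374) in KO2, neither called. Both active AKT1 and the inhibitor of AKT thus went with lower INPP4B RNA. The former was compared with the parental line and the latter with the same pools untreated.

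PHLPP1 (ENSG00000081913, chr18:62715541-62980433, plus strand) encodes a phosphatase that dephosphorylates the hydrophobic motif of AKT. It had 35.1, 32.3 and 32.6 CPM in WT and 18.82, 19.95 and 19.97 CPM in myrAKT, with no overlap. KO1 libraries had 35.0, 34.1 and 36.2 CPM, KO2 libraries 31.4, 31.1 and 28.8 CPM, KO1+MK libraries 28.6, 28.1 and 28.5 CPM, and KO2+MK libraries 26.95, 26.7 and 25.8 CPM. KO1 overlapped WT, while KO2 and the treated pools lay below it. The order was myrAKT, KO2+MK, KO1+MK, KO2, WT and KO1, and WT and KO1 were the neighbours that overlapped.

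The log2 fold change of PHLPP1 was −0.77 in myrAKT (SE 0.0565, adjusted p = 4.66e-08). With MK2206 it was −0.28 in KO1 (SE 0.0464, adjusted p = 3.20e-04), a call lost without any 1 of 3 of the 6 libraries. It was −0.18 in KO2 (adjusted p = 0.0115) and −0.23 over both pools (adjusted p = 0.00249), not called. With the pool as a factor, the value over both pools was −0.23 and passed the threshold (adjusted p = 1.83e-05). Against WT it was 0.06 (adjusted p = 0.321) in KO1 and −0.14 (adjusted p = 0.0277) in KO2, and KO1 against KO2 gave 0.19 (adjusted p = 0.00427).

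Phosphoinositide phosphatases other than INPP4B numbered 16, of which 15 were tested. In the knockout pools 0 were called higher by edgeR and 4 lower (median −0.10), where 15.5% and 16.6% of all tested genes were. INPPL1 fell from 188.9 ± 1.71 to 140.2 ± 7.49 CPM (log2 fold change −0.45, adjusted p = 6.17e-06) and INPP5F from 82.0 ± 2.14 to 62.2 ± 3.79 CPM (−0.42, adjusted p = 2.94e-05). In myrAKT 3 were higher and 3 lower (median 0.07), where 12.7% and 17.3% of all tested genes were. INPP5D, a phosphatase best known from blood cells, rose from 0.510 ± 0.0684 to 1.97 ± 0.233 CPM (1.94, adjusted p = 5.22e-06), on 15 to 21 counts in WT and 56 to 86 in myrAKT, while INPP5A fell by −0.61 (adjusted p = 1.74e-07). MK2206 raised 5 and lowered 0 by edgeR (median 0.22), beside 12.8% and 8.75% of all tested genes. SYNJ1 rose from 27.1 ± 1.75 to 43.4 ± 3.84 CPM (0.70, adjusted p = 8.21e-07) and INPP5K by 0.51 (adjusted p = 5.11e-07).

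Phosphatases and other modulators of AKT besides PHLPP1 numbered 15, of which 14 were tested. Knockout pools had 2 called higher and 2 lower (median −0.0010, beside 15.5% and 16.6% of all tested genes), the latter PPP2R2C, a regulatory subunit of PP2A, at −0.60 (adjusted p = 2.20e-06) and the pseudokinase TRIB1 at −0.53 (adjusted p = 1.23e-05). In myrAKT 4 were higher and 6 lower (median −0.03, beside 12.7% and 17.3% of all tested genes), with BTBD10, a protein that protects AKT from PP2A, at −1.03 (adjusted p = 2.12e-10) and the PP2A scaffold PPP2R1B at −0.58 (adjusted p = 1.07e-07). MK2206 raised 2 and lowered 0 by edgeR (median −0.02), beside 12.8% and 8.75% of all tested genes. These were TRIB1, from a mean of 35.7 CPM to 62.8 CPM (0.84, adjusted p = 3.48e-05), and PHLPP2, the paralog of PHLPP1, from 47.6 ± 5.09 to 71.6 ± 8.94 CPM (0.61, adjusted p = 5.84e-05). PHLPP2 thus rose with MK2206, while PHLPP1 was lower in every treated library than in every untreated one of its own pool.

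The mTORC1 arm downstream of AKT held 15 genes, all tested, with 4 called higher and 3 lower in the knockout pools (median 0.08), where 15.5% and 16.6% of all tested genes were. DDIT4, an inhibitor of mTORC1 induced by stress, fell from 79.4 ± 9.17 to 27.1 ± 4.35 CPM (log2 fold change −1.57, adjusted p = 8.99e-07), and its paralog DDIT4L by −0.87 (adjusted p = 1.81e-04). In myrAKT 4 were higher and 2 lower (median −0.04), where 12.7% and 17.3% of all tested genes were. SESN3, a sestrin that restrains mTORC1, rose from 6.04 ± 0.471 to 45.7 ± 1.08 CPM (2.91, adjusted p = 4.78e-13), and DDIT4 rose by 0.54 (adjusted p = 2.80e-05). MK2206 raised 6 and lowered 0 by edgeR (median 0.17, beside 12.8% and 8.75% of all tested genes), with SESN3 from a mean of 9.52 CPM to 31.9 CPM (1.77, adjusted p = 2.45e-04) and SESN2 from 10.6 ± 2.56 to 24.5 ± 2.90 CPM (1.22, adjusted p = 5.57e-06).

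Over the 6 lists, 73 of the 81 genes other than the 8 were tested. Knockout pools had 12 called higher and 14 lower, where 15.5% and 16.6% of all tested genes were. In myrAKT 15 were higher and 21 lower, where 12.7% and 17.3% of all tested genes were. MK2206 raised 21 and lowered 3, where the shares of all tested genes were 12.8% and 8.75%, with a median log2 fold change of 0.10 beside −0.0031 over all tested genes. Within a pool it raised 22 and lowered 5 in KO1, where 10.9% and 8.26% of all tested genes were called. In KO2 it raised 19 and lowered 5, where 13.1% and 8.78% were.

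**Figure D4:**
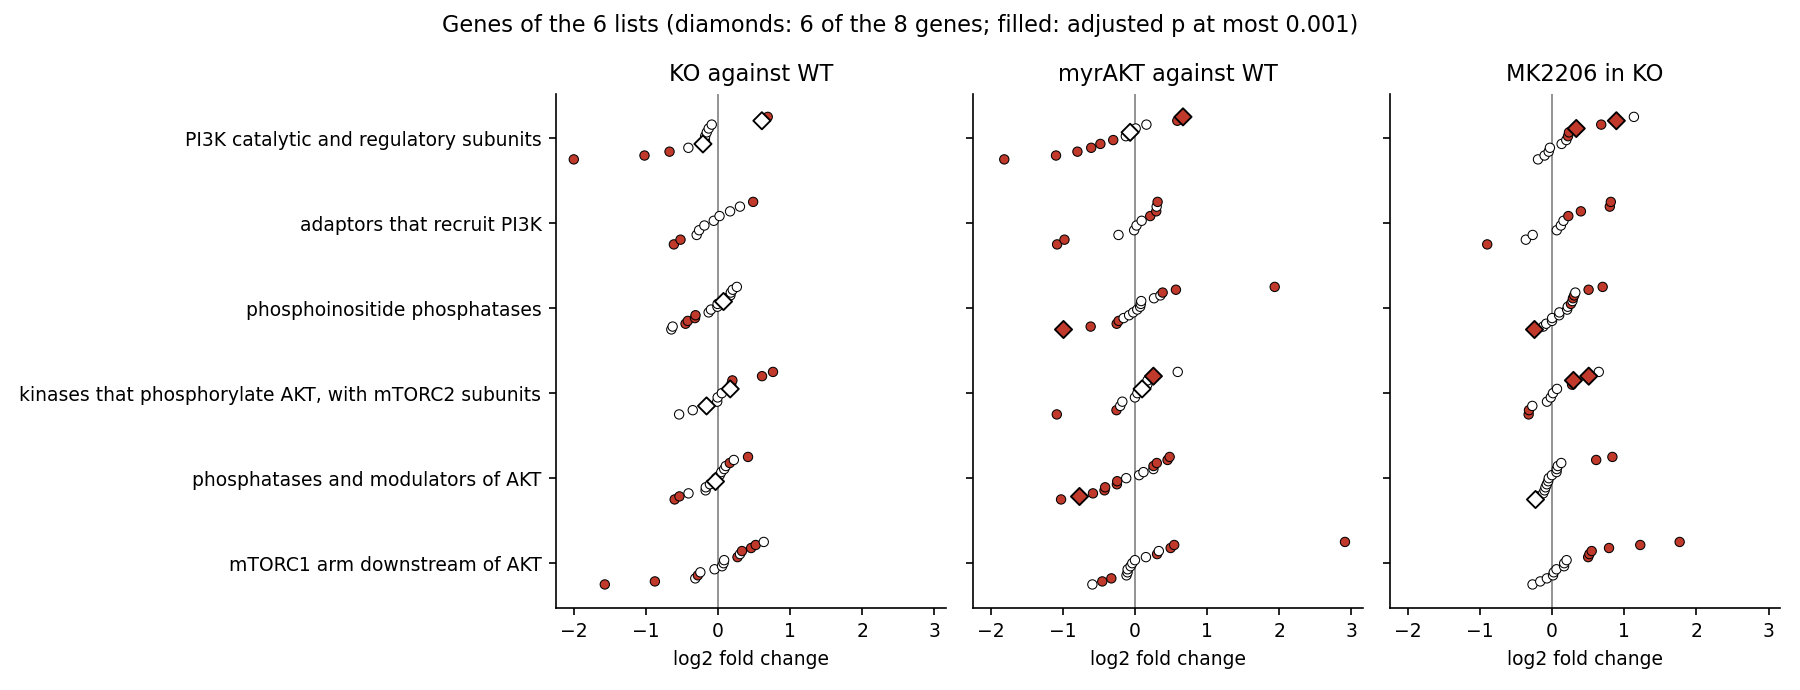
Log2 fold change (x axis) of the tested genes of the 6 lists (y axis) in 3 comparisons, each point a gene. Diamonds are the 6 members that belong to these lists and filled symbols are genes called. With MK2206 most filled symbols lie to the right of 0, and SESN3 reaches 2.91 in myrAKT.

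For the 5 members whose group means differed by at least 1.5-fold, the tested genes with the most similar profile were found by Pearson correlation of log2 CPM over the 18 libraries, which fall into 6 groups and share depth and pool. PIK3R1 was closest to TRIM33 (r = 0.985), NAA30 (0.985) and PIK3R3 (0.984), so that the regulatory subunits PIK3R1 and PIK3R3 had nearly parallel levels. PIK3R3 ran from 9.26 CPM in WT to 27.4 CPM in KO2+MK. PDPK1 was closest to SYNJ1 (0.990), LRRC37BP1 (0.988) and MFAP3 (0.987). PHLPP1 was closest to TGFB2 (0.988), its antisense neighbour TGFB2-AS1 (0.985) and PHACTR2 (0.981), and TGFB2 had a mean of 66.7 CPM in WT and 15.3 CPM in myrAKT. INPP4B was closest to KRT7 (0.986), CCNH (0.986) and ADGRA3 (0.982), with KRT7 at 97.6 CPM in WT and 16.8 CPM in myrAKT. AKT1, whose profile is set by the myrAKT libraries, was closest to CD58 (0.973), TNC (0.971) and DAP (0.971).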

How the data were processed

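The authors' deposited table holds a raw count per Ensembl gene for each library. According to the submitters' processing notes, reads were checked with FastQC, trimmed with Trim Galore, aligned to hg38 with HISAT2 and counted with featureCounts. Versions of these programs, the annotation release and the use of strand in counting are not given in the sources used here. The 18 libraries were sequenced as 1 pool in 2 runs.

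Genes were named from GENCODE release 44, which gave symbols to 41445 and positions to 56948 of the 57448 genes. A gene was tested if 3 or more of the 18 libraries had 1 CPM or more of it, which 15587 did. Only the libraries of a comparison entered its fit. Main fits in which the pools were joined had no term for the pool. Quasi-likelihood tests were run in edgeR 4.0.16 with limma 3.58.1 in R 4.3.3, with TMM factors, edgeR's default prior for fold changes, and p adjusted over all tested genes (Benjamini-Hochberg). DESeq2 1.42.0, other scaling factors, filters and thresholds, a fit of all libraries, a replicate block and the omission of each library served as alternatives. Python 3.11.15 was used for tables (pandas 2.3.3, numpy 2.4.6) and plots (matplotlib 3.10.9). A prior count of 2 was used for log2 CPM. The scripts were tested on simulated data.

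The 8 genes and the 6 lists were chosen with earlier results from these data known. Genes of the lists named singly were the 2 called with the largest absolute change in each of 3 comparisons. PIK3R3, PIK3CB, PIK3CD and PIK3CG are also given as paralogs of the 8, and IRS2 beside IRS1. Of the lists, PIK3R2, PIK3R5, PIK3R6, PIK3C2G, IRS4, GAB3, TPTE2 and PPP2R2B were not tested. Shares of the catalytic subunits, the ratio of PIK3R1 to PIK3CA and percentages of WT were defined after the data had been seen. Promoters are windows of RefSeq starts in GRCh38.p14.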

Additional observations from a re-analysis of the deposited data

Results flagged for a closer look

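PIK3R1 differed between the pools, with KO1 below KO2 by −0.427 in log2 units, although both were above WT (adjusted p = 9.30e-07).

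INPP4B lay in all KO1 libraries above all WT libraries, by 0.104 in log2 units, and in all myrAKT libraries below them, by −1.001. RICTOR lay below WT in all KO1 libraries, by −0.181, and in all KO2 libraries, by −0.123, and above WT in all myrAKT libraries, by 0.255. These comparisons share the WT libraries, and the difference between the lines was not tested for either gene.

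Each of the 8 genes was checked for a library standing apart in the 6 untreated and the 6 treated knockout libraries, 16 groups in all, and none was found. Chance marks about 1 in 20 such groups, and where the pools differ in level a library apart from its own pool can go unseen.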

How the results depend on the processing

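Of the 72 log2 fold changes of the 8 genes, 32 were called, and 0 of these reversed sign in any alternative. In KO against WT the count of 1 became 0 with a fold change of at least 1.5, 5 with an adjusted p of 0.05, 2 with DESeq2 size factors, with library totals or without a filter, 3 with DESeq2, and 4 with all 18 libraries in one fit. In KO1 against WT the count of 4 became 0 with a fold change of at least 1.5 at either threshold, 6 with an adjusted p of 0.05, and 3 without a filter or with all 18 libraries in one fit. In KO2 against WT the count of 3 became 1 with that fold change, 6 with an adjusted p of 0.05, 1 with both, and 2 without a filter or with at least 10 counts in every library. The counts for MK2206, 6 in KO, 7 in KO1 and 5 in KO2, each became 1 with a fold change of at least 1.5, at either threshold, and 7 in each with an adjusted p of 0.05. The count in KO became 5 with DESeq2 size factors, no filter, at least 10 counts in every library or the replicate block, and 7 with DESeq2, all 18 libraries in one fit or the line as a factor. In KO1 it became 6 with library totals or the replicate block, and in KO2 4 with upper-quartile factors and 6 with all 18 libraries in one fit. The 5 in myrAKT became 4 with a fold change of at least 1.5, at either threshold, or without a filter. The 0 for the difference between pools never changed. In KO1 against KO2 the count of 1 became 0 with a fold change of at least 1.5, at either threshold, 3 with an adjusted p of 0.05, and 2 with DESeq2 size factors, upper-quartile factors, library totals, DESeq2, no filter or the replicate block. The cause of these differences was not tested. No share of all tested genes is given for the counts at these other settings. They therefore do not show whether the 8 genes differ from the rest.

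Replicate numbers were not shown to pair the groups. Same-number correlations ran from −0.405 to 0.297 and the same number correlated best in 8 of 24 cases. With the replicate block, PIK3CA in MK2206 in KO (0.334, adjusted p = 0.00214) and AKT2 in MK2206 in KO1 (−0.183, adjusted p = 0.00166) lost their call, and PIK3CA in KO1 against KO2 gained one (−0.184, adjusted p = 0.000381).

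The reversals were of values near 0. AKT1 in KO against WT was −0.010 with upper-quartile factors, −0.013 with library totals and −0.000 without KO1 replicate 3, within a range of −0.000 to 0.044 over omitted libraries. AKT1 in KO2 against WT was 0.003 without KO2 replicate 2, in a range of −0.063 to 0.003. INPP4B in KO2 against WT was −0.004 without KO2 replicate 1, in a range of −0.004 to 0.042. AKT1 with MK2206 in KO2 was 0.004 without KO2 replicate 3 and 0.031 without KO2+MK replicate 3, in a range of −0.063 to 0.031.

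With each library left out, the count ran from 1 to 2 in KO against WT and in KO1 against KO2, 3 to 4 in KO1, 2 to 3 in KO2, 4 to 5 in myrAKT, 5 to 7 for MK2206 in KO1, 3 to 6 in KO2 and 5 to 6 in KO. No share of all tested genes is given for these counts either. Omissions that ended a call follow with adjusted p. RICTOR in KO1 lost its call without WT replicate 3 (0.00217) or KO1 replicate 1 (0.00282). PDPK1 in KO2 lost it without WT replicate 1 (0.00213) or 3 (0.00411) or KO2 replicate 1 (0.0044), 2 (0.00176) or 3 (0.00541). RICTOR in myrAKT lost it without WT replicate 1 (0.0012), 2 (0.00188) or 3 (0.00141) or myrAKT replicate 2 (0.0011). With MK2206, PIK3CA over both pools lost it without KO1 replicate 1 (0.00206), 2 (0.00204) or 3 (0.00211), KO2 replicate 3 (0.00156), KO1+MK replicate 1 (0.00109) or 2 (0.00109), or KO2+MK replicate 1 (0.00259), 2 (0.00318) or 3 (0.0025). AKT2 in KO1 lost it without KO1 replicate 1 (0.00591), 2 (0.00143) or 3 (0.00369) or KO1+MK replicate 2 (0.00235) or 3 (0.00116). PHLPP1 in KO1 lost it without KO1 replicate 1 (0.00224) or 3 (0.00257) or KO1+MK replicate 2 (0.00151). INPP4B in KO2 lost it without KO2 replicate 1 (0.00602) or 2 (0.00146) or KO2+MK replicate 2 (0.00201) or 3 (0.0015). RICTOR in KO2 lost it without KO2 replicate 1 (0.00188) or 3 (0.00257) or KO2+MK replicate 2 (0.00277) or 3 (0.00117).

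Gene counts do not show protein, phosphorylation or kinase activity. The knockout lines are mixed pools whose GPS2 counts were not lower, only they were treated, no vehicle is named, and treated libraries were shallower. No group carried a control virus, so that knockout and active AKT1 cannot be told apart from transduction. Transferred and endogenous AKT1 could not be separated, and the use of strand, which bears on GPS2, PIK3CA, PIK3CD, PDPK1 and RICTOR, is unknown. Each group has 3 libraries, not known to come from separate cultures.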
